A study of Homo sapiens with 6 samples.

Results

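Clone-named lncRNAs are long noncoding RNAs that the table names after the genomic clone in which they were annotated, such as AC079062.1. The members were the transcripts with an Ensembl identifier whose symbol consists of 1 or 2 capital letters, 5 or 6 digits, a full stop, a number and an isoform number. Of the 1437 transcripts in the deposited table, 688 were annotated and 356 had such a name. Of these, 17 were left out by gene name, which left 339 members of 321 genes.

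The series compares A549 with HBE, with 3 samples per line. A549 is an established line of lung adenocarcinoma cells, grown in DMEM, and HBE, spelled HEB in places in the labels, is a normal lung epithelial line kept in RPMI-1640. Both media held 10% fetal bovine serum, and no drug or genetic change is given for either line. Line and medium therefore cannot be told apart. Nothing in the labels tells whether a line's samples came from separate cultures. The spread behind each p-value is therefore that between these samples and may be technical.

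A long noncoding RNA is a transcript too long to be a small RNA and without a recognised protein product. Many are spliced and polyadenylated like messenger RNAs, lie antisense to a coding gene, or start beside a coding gene's promoter and run away from it. Some act on chromatin or on neighbouring genes and others on RNAs or proteins in the cytoplasm, but for most clone-named genes no function is established. Their transcripts are often present in few cell types and at low level.

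The recovered library sizes were 55443147 to 57666960 reads in A549 and 49376539 to 56218006 in HBE, so that 1 count was worth 0.0173 to 0.0203 CPM, the count scaled to library size. The members took 14192 to 15742 counts per A549 sample and 18257 to 22074 per HBE sample. MIR205HG, the airway epithelial marker and host gene of a microRNA, had no count in A549 in any of its 3 transcripts and summed to 76.2 to 213 CPM in HBE. SFTA1P, the single gene of 4 alveolar and club markers in the table, had none in A549 in 2 transcripts, against 2.40 to 6.64 CPM in HBE. Mesenchymal markers in the table, 2 of 4 (FENDRR and MIR100HG), summed to 0.243 to 1.05 CPM in A549 and 0.943 to 1.35 CPM in HBE. Of their 3 transcripts, 2 were higher and 1 lower in A549, so they share no direction. Neural markers, also 2 of 4 (MIAT and OLMALINC), summed to 3.19 to 4.001 CPM in A549 and 0.836 to 2.65 CPM in HBE. Of their 2 transcripts, 1 was higher and 1 lower in A549. No blood or endothelial marker and no coding marker was in the table, and the part of any marker in the results below was not tested.

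The sequences that the results return to are shown first, 5′ to 3′. The windows are promoters from RefSeq (GRCh38.p14), from 250 bases before to 50 bases after a gene's start, and capitals mark the first 20 bases of the clone-named transcript, as its reverse complement where the transcript lies on the other strand. The first windows are of members without a count in A549, on the members' own strand. The PAPLN-AS1 window (chr14:73245952-73246251, minus strand) holds the start of AC004846.1, and the STEAP1B-AS1 window (chr7:22563087-22563386, plus strand) that of AC002480.1.
AC004846.1: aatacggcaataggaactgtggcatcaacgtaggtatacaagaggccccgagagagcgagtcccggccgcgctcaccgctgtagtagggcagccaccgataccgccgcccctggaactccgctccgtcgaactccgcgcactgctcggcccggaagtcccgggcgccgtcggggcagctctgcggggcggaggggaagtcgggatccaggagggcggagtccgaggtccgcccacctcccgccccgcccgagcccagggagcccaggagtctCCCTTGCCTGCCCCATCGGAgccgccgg
AC002480.1: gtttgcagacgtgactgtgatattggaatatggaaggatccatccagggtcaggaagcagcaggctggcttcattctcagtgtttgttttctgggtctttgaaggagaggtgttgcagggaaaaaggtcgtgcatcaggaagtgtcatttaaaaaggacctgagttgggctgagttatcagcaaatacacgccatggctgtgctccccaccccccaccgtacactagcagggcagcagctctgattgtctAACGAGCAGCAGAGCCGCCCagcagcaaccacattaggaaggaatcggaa

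Members without a count in HBE are represented by ENST00000588784 of AC006504.5, which starts inside the LINC00662 window on the opposite strand (chr19:27793891-27794190, minus strand), and by ENST00000571452 of AC233701.1, which starts in an RBFOX3 window on the same strand (chr17:79603825-79604124, minus strand).
AC006504.5: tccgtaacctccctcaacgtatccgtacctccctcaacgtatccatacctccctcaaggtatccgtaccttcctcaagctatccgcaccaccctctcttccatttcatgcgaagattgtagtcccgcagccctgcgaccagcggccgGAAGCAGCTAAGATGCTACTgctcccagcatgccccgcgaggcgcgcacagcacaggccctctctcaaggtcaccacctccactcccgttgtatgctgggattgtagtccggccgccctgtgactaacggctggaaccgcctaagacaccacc
AC233701.1: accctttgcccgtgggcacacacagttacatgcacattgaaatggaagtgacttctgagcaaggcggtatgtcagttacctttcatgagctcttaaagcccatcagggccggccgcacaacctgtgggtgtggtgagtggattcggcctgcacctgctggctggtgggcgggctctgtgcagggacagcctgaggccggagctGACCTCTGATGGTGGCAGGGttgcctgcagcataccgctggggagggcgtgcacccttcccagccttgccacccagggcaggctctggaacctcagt

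Divergent starts, where a member leaves a coding promoter on the other strand, are represented by the windows of TCF12 (chr15:56918394-56918693, plus strand) and RELA (chr11:65662867-65663166, minus strand).
AC090517.5: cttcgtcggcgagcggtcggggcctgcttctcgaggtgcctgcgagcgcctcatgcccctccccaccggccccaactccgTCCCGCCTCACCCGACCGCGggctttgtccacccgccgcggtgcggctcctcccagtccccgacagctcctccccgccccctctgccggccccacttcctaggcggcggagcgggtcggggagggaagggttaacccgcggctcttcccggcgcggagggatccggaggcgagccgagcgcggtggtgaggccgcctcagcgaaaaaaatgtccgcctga
AP001362.2: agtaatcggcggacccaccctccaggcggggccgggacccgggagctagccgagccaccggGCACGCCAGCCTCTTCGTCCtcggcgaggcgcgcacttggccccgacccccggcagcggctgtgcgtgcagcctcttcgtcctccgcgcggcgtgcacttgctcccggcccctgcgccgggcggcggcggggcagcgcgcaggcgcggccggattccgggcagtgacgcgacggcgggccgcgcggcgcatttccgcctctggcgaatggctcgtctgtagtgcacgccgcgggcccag

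Of the 339 members, 338 differed between the lines at an adjusted p below 0.05 (edgeR's quasi-likelihood test, Benjamini-Hochberg over all 1437 transcripts). In A549, 154 members (45.4%) were higher and 184 (54.3%) were lower, against 47.6% and 52.3% of all transcripts in the table. The table holds transcripts that the authors listed as regulated on the same 6 samples, and 99.9% of it was called, so the calls describe the selected transcripts and are no independent evidence of a difference. In all 339 members the CPM of the lines did not overlap, as in 99.2% of the table. The split depended on the scaling. It was 155 higher and 142 lower with DESeq2's size factors over the table and 155 and 123 with the table's column totals as library sizes. The median change in log2 fold change per transcript, over the whole table, was 0.86 and 1.10. The median log2 fold change of A549 over HBE was -2.19 over the members and -2.004 over the table. The smallest absolute log2 fold change of a member was 1.11, so a median falls on the side with more transcripts. For members of lincRNA genes it was 2.42. These medians therefore describe no typical shift. The authors' deposited log2 fold change had the same sign as the fitted one in all 339 members.

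Many members had counts in a single line. In A549, 72 members had no count in any sample, and in HBE, 80 had none. The members without a count in A549 were 21.2%, against 27.7% of the table, and those without a count in HBE were 23.6%, against 28.6% of the table. Of the other annotated transcripts, 25.5% had no count in A549 and 23.5% none in HBE. The shares were 20.2% and 19.3% for antisense-named transcripts and 29.6% and 37.0% for LINC-named ones. The members lay between these 2 classes, so they did not stand apart in either line. The plot of mean levels in both lines shows the members without a count in a line as strips along its axes. Most levels were low: the median of the mean level in the higher line was 0.585 CPM, with quartiles of 0.288 and 1.63 CPM and a maximum of 29.7 CPM. In FPKM, which scales a count by transcript length and library size, 104 members (30.7%) reached a mean of 1 in at least 1 line. This stood against 24.3% of the table and 32.4% of the other annotated transcripts. Of these members, 10 reached it in both lines.

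**Figure D1:**
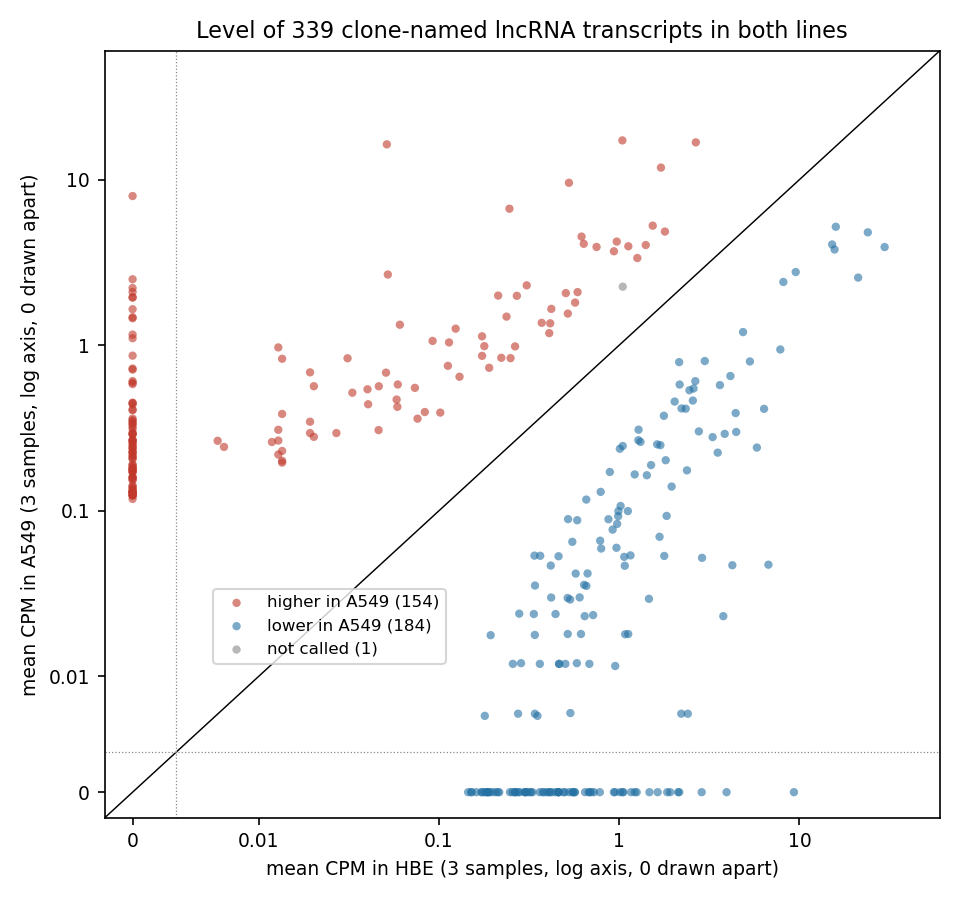
Mean CPM of each of the 339 clone-named transcripts in A549 (vertical axis) and HBE (horizontal axis), both on log axes with means of 0 drawn apart, and the line of equal level. The 154 red points were called higher in A549, the 184 blue points lower, and the single grey point was not called; 72 members lie on the strip without counts in A549 and 80 on the strip without counts in HBE.

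The summed level of the members was 281, 256 and 255 CPM in A549 and 325, 404 and 447 CPM in HBE. On the recovered library sizes every A549 sample was below every HBE sample, but this order depended on the scaling. With sizes proportional to another scaling and the same geometric mean, the sums in CPM differed. With DESeq2's size factors over the table they were 433, 455 and 397 in A549, against 238, 242 and 239 in HBE, so that every A549 sample was above every HBE sample. With column totals they were 546, 592 and 256 in A549, against 139, 196 and 478 in HBE, and with TMM factors 351, 291 and 305 in A549, against 302, 334 and 342 in HBE, and the lines overlapped in both. No direction of the summed level therefore held under every scaling. The 3 other scalings were computed over the table's selected transcripts alone, nearly all of them called. These transcripts held 0.459% to 1.06% of the library in A549 and 0.991% to 2.48% in HBE. Which scaling suits the sum was not tested. On the recovered sizes, the means were 264 ± 14.8 CPM in A549 and 391.8 ± 62.0 CPM in HBE (SD, n = 3 each), a difference of -128 CPM, and the exact permutation test gave p = 0.1, two-sided, the smallest that 3 samples against 3 allow. In FPKM the sums were 184 ± 7.29 in A549 and 299 ± 46.0 in HBE (SD, n = 3 each). The members called higher made up 79.1% to 83.5% of the summed CPM in A549 and 5.13% to 7.18% in HBE, which follows from the choice of these members. Between 234 and 248 members had a count in an A549 sample and between 229 and 247 in an HBE sample, and the 10 with the highest CPM held 39.0% to 39.2% of the summed CPM in A549 and 37.1% to 43.6% in HBE.

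Among the members without a count in HBE, the largest difference was that of AC079062.1, transcript ENST00000581862 (chromosome 18, 4 exons), which lies 290676 bases from its nearest coding gene, NETO1. It had 497, 594 and 247 counts in A549 and none in HBE. All A549 samples were high, replicate 3 the lowest, and the mean was 7.96 ± 3.31 CPM (SD, n = 3). Against a floor of 3 counts over the 3 HBE samples this was at least 415-fold higher in A549, a bound that covers counting error only. The gene's other member, ENST00000581011, listed by RefSeq as LINC02864, took 2.62% to 9.14% of the gene's member counts in A549.

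AC022613.1, listed by RefSeq as LCIIAR (chr15:29674990-29679168, plus strand, 2 exons), had 950, 777 and 1038 counts in A549, against 0, 8 and 0 in HBE. The few HBE counts all came from replicate 2. The mean was 16.3 ± 2.07 CPM in A549 and 0.0514 ± 0.0891 CPM in HBE (SD, n = 3 each), and the log2 fold change was 8.26 with an SE of 0.89 (adjusted p = 2.27e-08, edgeR's quasi-likelihood test). It was 12.81 without HBE replicate 2, when HBE had no count left, and 7.66 without HBE replicate 1. The nearest coding gene is TJP1, which encodes the tight-junction scaffold ZO-1, 20199 bases away.

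Several further members without a count in HBE lie inside or beside coding genes. AC129492.1 (chr17:8079482-8081565, plus strand) starts 69 bases from ALOX12B, the gene of an epidermal lipoxygenase, and overlaps its exons on the opposite strand. It had 165, 132 and 76 counts in A549 and was higher there by at least 116-fold. ENST00000571452 of AC233701.1, whose start is shown above in a window of RBFOX3, the gene of a neuronal splicing factor, had 121, 111 and 97 counts in A549, a bound of 102-fold. ENST00000559008 of AC016705.2 starts 775 bases from ARNT2, the gene of a bHLH-PAS transcription factor, on the other strand. Its 145, 153 and 27 counts in A549 differed between samples, replicate 3 being low, and the bound was 101-fold. AC023449.2 lies within ATP10A, the gene of a phospholipid flippase, on the same strand, with 98, 86 and 95 counts in A549 and a bound of 86.6-fold. AL606970.1 lies within DACT2, the gene of a regulator of Wnt and TGF-beta signalling, also on the same strand, with 79, 72 and 99 counts in A549 and a bound of 77.6-fold. Intronic members on the strand of their host gene can share reads with its unspliced RNA, and the part of such reads was not tested.

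At the HBE-only end stood AC004846.1, listed by RefSeq as PAPLN-AS1 (chr14:73242651-73245979, minus strand, 2 exons). It was without counts in A549 and had 463, 537 and 462 in HBE. The HBE samples lay close together, at 9.32 ± 1.06 CPM (SD, n = 3). The level in A549 was at least 523-fold lower, the largest bound among the members. Its exons overlap those of PAPLN, the gene of the extracellular matrix protein papilin, on the opposite strand. The use of strand in counting is not given in the sources, so reads of a member and of a gene overlapping it on either strand cannot be told apart.

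AC002480.1, listed by RefSeq as STEAP1B-AS1, lacked counts in A549 and had 157, 57 and 92 in HBE, at least 110-fold lower in A549 (109.5 before rounding). It overlaps exons of STEAP1B on the opposite strand, and its promoter window is shown above. AC009237.14 (chr2:95525109-95526702, minus strand) had none in A549 and 118, 142 and 80 in HBE, at least 122-fold lower in A549. AC110619.1, which starts 380 bases from GPC1, the gene of the cell-surface proteoglycan glypican 1, had 1, 0 and 0 counts in A549, against 83, 144 and 146 in HBE. The ratio of HBE over A549 was 401, with an exact binomial 95% interval of 71.5 to 15865 for counting error. AC015712.6, 12257 bases from ALDH1A3, the gene of a retinaldehyde dehydrogenase, had 1, 0 and 0 counts in A549, against 151, 194 and 10 in HBE. Its ratio of HBE over A549 was 381 (interval 68.0 to 15101), but HBE replicate 3 was far below the other two.

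Among members with few counts in A549, AC100803.2 near GPR20, the gene of an orphan receptor, had 6, 0 and 2 counts in A549, against 186, 519 and 339 in HBE. Its log2 fold change was -7.08 (SE 0.84), and -8.40 without A549 replicate 1. AC005082.1 had 0, 0 and 4 counts in A549, against 162, 215 and 213 in HBE. Its log2 fold change was -7.20 (SE 0.92), and -10.67 without A549 replicate 3, which held all of the A549 counts. The fitted log2 fold changes of AC110619.1 and AC015712.6 were -8.19 and -8.07. Without A549 replicate 1, which held the only count, they were -10.02 and -9.90, and that of AC015712.6 was -7.47 without HBE replicate 2.

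**Figure D2:**
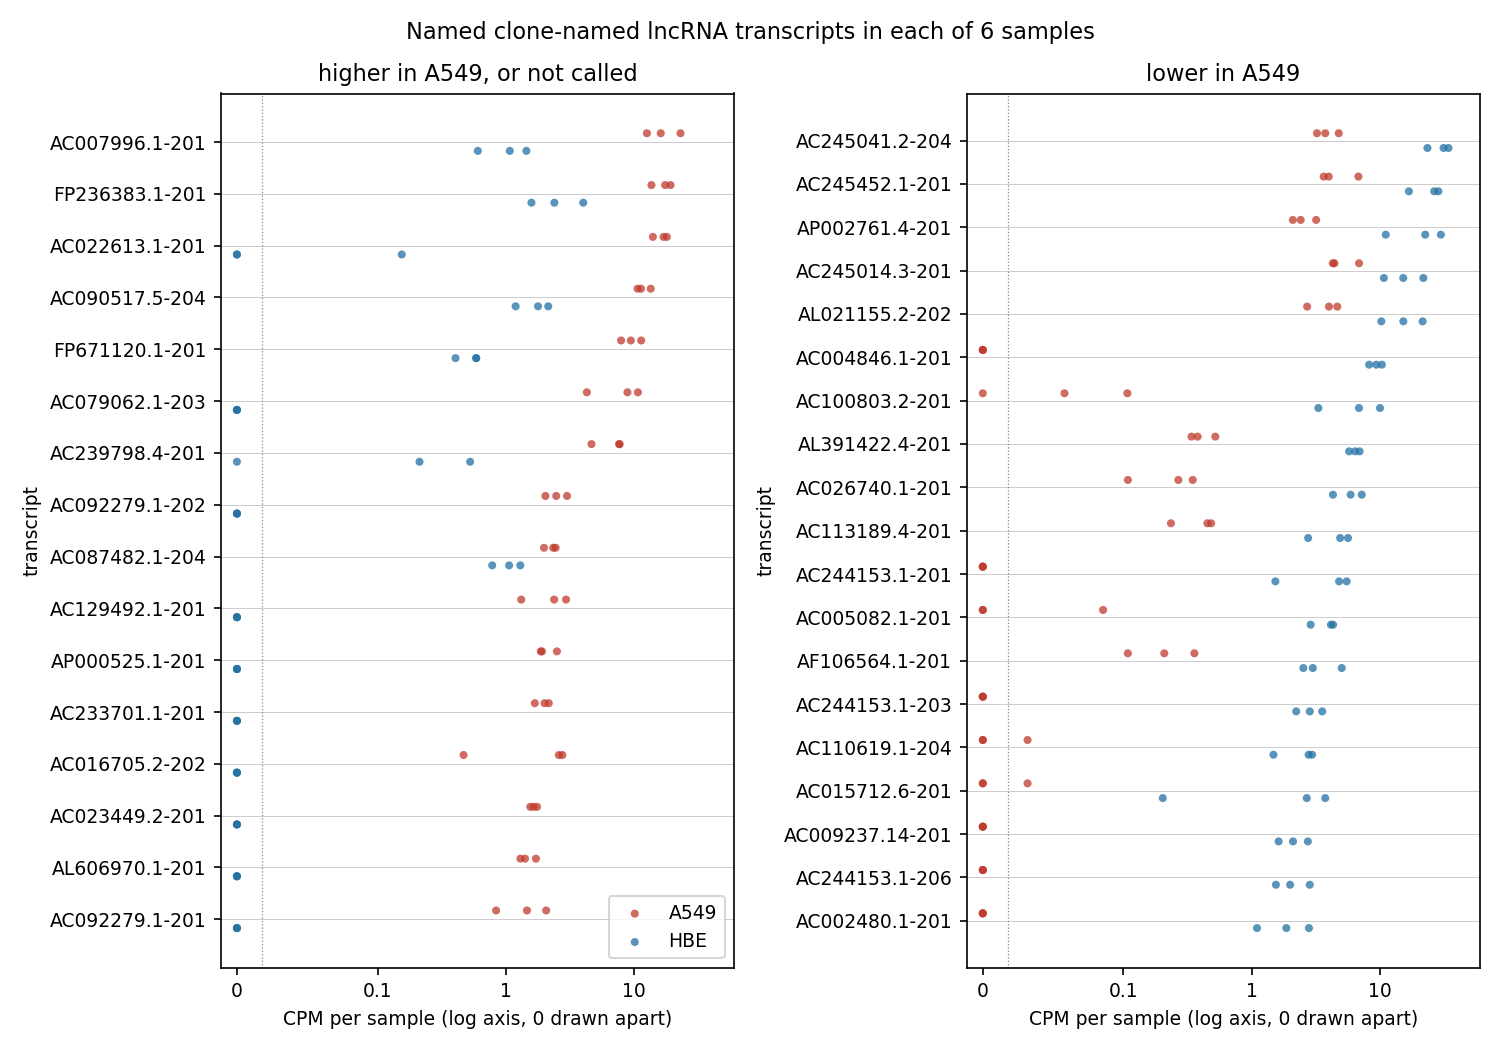
CPM of named clone-named transcripts in each A549 sample (red) and each HBE sample (blue) on a log axis, with values of 0 drawn apart; the left panel holds members higher in A549 and AC087482.1, which was not called, and the right panel members lower in A549. In each row the red and blue points do not overlap, and a single low point stands apart for AC016705.2 in A549 and for AC015712.6 in HBE.

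The members with the most reads per length were counted in both lines. AC245014.3 (chr1:145281116-145281462, plus strand) had 240, 245 and 396 counts in A549, against 603, 1130 and 750 in HBE, or 14.9 FPKM in A549 and 45.8 FPKM in HBE, the highest length-scaled level of any member in either line. AL021155.2, also on chromosome 1, had 224, 150 and 268 counts in A549, against 576, 1115 and 751 in HBE, or 5.13 FPKM in A549 and 21.2 FPKM in HBE. The log2 fold change was -1.61 (SE 0.51, adjusted p = 0.00414) for AC245014.3 and -2.05 (SE 0.52, adjusted p = 0.000646) for AL021155.2 (edgeR's quasi-likelihood test). With DESeq2's size factors over the table in edgeR the calls ended, at -0.21 (adjusted p = 0.662) and -0.65 (adjusted p = 0.185).

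Both transcripts contain a small RNA gene on their own strand. AC245014.3 holds all 164 bases of RNVU1-14, a variant of the U1 RNA of the spliceosome that recognises 5′ splice sites, which is 47.3% of the transcript. Reads of the small RNA and of the clone-named transcript cannot be told apart there. The RNVU1-14 gene is printed in capitals (chr1:145281116-145281279, plus strand, from GENCODE release 29), with only the first of the transcript's bases that follow it, in lower case.
AC245014.3: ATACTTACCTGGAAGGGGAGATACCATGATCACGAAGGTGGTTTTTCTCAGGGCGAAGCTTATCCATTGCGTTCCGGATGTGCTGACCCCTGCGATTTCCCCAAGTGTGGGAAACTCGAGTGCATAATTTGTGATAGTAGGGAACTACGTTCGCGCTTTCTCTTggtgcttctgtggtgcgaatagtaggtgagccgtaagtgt

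One further member, AC124312.4, named after its values were seen like the copies described below, overlaps a small RNA gene on its own strand, the snoRNA gene SNORD64, and had 19, 13 and 6 counts in A549 and none in HBE. Its span also overlaps that of a SNHG14 transcript on the same strand, which was called higher in A549 (log2 fold change 8.05). The part of shared reads was not tested.

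Other members with many counts were lower in A549. AC245041.2 (chr10:47985519-47991850, minus strand) had 267, 179 and 216 counts in A549, against 1761, 1216 and 1690 in HBE. The means were 1.99 FPKM in A549 and 15.1 FPKM in HBE, with a log2 fold change of -2.92 (SE 0.53). All of its sequence recurs at 97% identity or more in transcripts of ANXA8, a gene of the annexin family of membrane-binding proteins, so its counts are uncertain. AP002761.4 lies 2623 bases from P2RY2, the gene of a receptor for extracellular nucleotides, on the same strand. It had 178, 116 and 139 counts in A549, against 624, 1548 and 1112 in HBE, and a log2 fold change of -3.05 (SE 0.55). AC245452.1, 37852 bases long and the longest member, had 380, 221 and 210 counts in A549, against 945, 1480 and 1307 in HBE. Its log2 fold change was -2.32 (SE 0.53), or -0.91 with DESeq2's size factors (adjusted p = 0.0688), and it overlaps exons of the phosphatase gene PPM1F and the topoisomerase gene TOP3B on the opposite strand. With column totals as library sizes, AC245041.2, AP002761.4 and AC245452.1 were not called (adjusted p = 0.0585, 0.0547 and 0.269).

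Further members lower in A549 with counts in both lines included AL391422.4, opposite exons of PXDC1, with 19, 21 and 30 counts in A549, against 323, 360 and 316 in HBE. Its log2 fold change was -3.94 (SE 0.59). AC026740.1 lies in TPPP, the gene of a tubulin-binding protein, on the opposite strand. It had 15, 6 and 20 counts in A549, against 332, 223 and 356 in HBE, and a log2 fold change of -4.58 (SE 0.65). AF106564.1, opposite exons of the neurofilament gene NEFM and starting 225 bases from it, had 20, 6 and 12 counts in A549, against 283, 131 and 148 in HBE, and a log2 fold change of -3.96 (SE 0.68). AC113189.4 shares exons with FGF11 and CHRNB1 on the same strand, a fibroblast growth factor gene and an acetylcholine receptor subunit gene. It had 27, 13 and 26 counts in A549, against 275, 292 and 136 in HBE, and a log2 fold change of -3.50 (SE 0.63), which was -2.01 and not called with column totals (adjusted p = 0.0738). AC009041.2, listed by RefSeq as CEROX1, a transcript described as raising the expression of mitochondrial complex I subunits, was chosen after its values were seen. It had 48, 18 and 12 counts in A549, against 184, 87 and 135 in HBE, and its log2 fold change of -2.46 (SE 0.67) was -3.26 on leaving out A549 replicate 1.

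The members higher in A549 with the most counts included AC007996.1, AC090517.5 and a pair of copies on chromosome 21. AC007996.1 (chr18:26542971-26545791, minus strand) is a single exon within KCTD1, a gene of the BTB-domain family, on the same strand. It had 705, 1276 and 931 counts in A549, against 34, 75 and 53 in HBE, and a log2 fold change of 4.05 (SE 0.58). AC239798.4 on chromosome 1, which shares exons with the histone gene HIST2H3PS2, had 428, 258 and 445 counts in A549, against 0, 11 and 26 in HBE. Its log2 fold change of 4.76 (SE 0.81) was 4.17 without HBE replicate 1 and 5.97 without HBE replicate 3, and 46.0% of its length recurs in HIST2H2BA, so its counts are uncertain.

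FP236383.1 (chr21:8380665-8410645, plus strand) and FP671120.1 (chr21:8197620-8227646, plus strand) have the same 2498 bases with 0 mismatches, so the division of reads between them is uncertain. FP236383.1 had 1077, 757 and 1007 counts in A549, against 89, 208 and 118 in HBE. FP671120.1 had 636, 439 and 544 counts in A549, against 33, 21 and 29 in HBE. Both were higher in every A549 sample than in any HBE sample, and the log2 fold change was 2.66 (SE 0.54) for FP236383.1 and 4.18 (SE 0.58) for FP671120.1. The first 100 bases, printed once because both transcripts share them, read as follows.
FP236383.1: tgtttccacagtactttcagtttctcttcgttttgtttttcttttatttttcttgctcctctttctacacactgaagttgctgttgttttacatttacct

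FP236383.2 overlaps FP236383.1 on the opposite strand, and all of its sequence recurs in FP236383.3, so its counts are uncertain. It had 12, 138 and 24 counts in A549, against 9, 1 and 8 in HBE, and was not called without A549 replicate 2 (log2 fold change 1.45 instead of 3.16, adjusted p = 0.138). A second identical pair lies on chromosome 1: AL390038.1 and AL359258.1 share 2481 bases. Neither had a count in A549, while in HBE AL390038.1 had 34, 22 and 8 and AL359258.1 had 36, 21 and 11. AP000525.1, with 140, 106 and 108 counts in A549 and none in HBE, was at least 110-fold higher there (109.9 before rounding). Of its length, 99.7% recurs in DUXAP10, a transcribed pseudogene, and reads of the pair cannot be told apart. In all, near-identical sequence of other genes covered over 50% of 16 members, of which 10 were higher and 6 lower in A549.

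Members of the same gene were called in the same direction. The table held more than 1 member for 14 genes, 32 members in all, and in 0 of these genes were members called in both directions by edgeR at an adjusted p below 0.05. The count was also 0 with DESeq2's Wald test. It was 0 at an unadjusted p below 0.05 as well, which could add nothing, since all 32 were already called. In genes whose members all lacked counts in 1 line, such as AC006504.5 and AC244153.1, opposite calls were not possible. Other genes of the table were not counted in this way, so the shared direction is no result about the members. AC006504.5, which starts beside LINC00662 on the opposite strand, had 4 members, all without a count in HBE. The single-exon ENST00000588784, whose start is shown above, had 72, 60 and 54 counts in A549, with a bound of 57.7-fold. ENST00000585917 had 30, 4 and 90 counts in A549, with a bound of 38.5-fold that was 16.01-fold without A549 replicate 3. ENST00000592404 had 25, 18 and 33 counts and ENST00000586784 had 8, 16 and 6 counts in A549, with bounds of 23.6-fold and 9.31-fold. The share of ENST00000585917 in the gene's member counts ranged from 4.08% to 49.2% over the A549 samples, and that of ENST00000588784 from 29.5% to 61.2%. The LINC00662 transcript that overlaps 3 of them on the opposite strand was also called higher in A549.

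AC092279.1 shares exons with the zinc-finger gene ZNF254 on the same strand. ENST00000597683 had 114, 137 and 173 counts in A549 and ENST00000594934 had 47, 81 and 119, with none in HBE, at least 132-fold and 76.7-fold higher in A549. ENST00000560587 of AC090517.5, shown above in the TCF12 window, starts 130 bases from the nearest GENCODE start of TCF12 on the other strand. TCF12 is the gene of a bHLH transcription factor. ENST00000560587 shares exons with AC090517.4, a gene annotated as coding. It had 755, 628 and 614 counts in A549, against 67, 111 and 88 in HBE, and a log2 fold change of 2.79 (SE 0.53). It took 90.5% to 97.3% of the gene's member counts in A549 and 88.9% to 92.5% in HBE, and these ranges overlap.

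AC244153.1 lies within ARHGAP23 on the opposite strand (chr17:38450394-38452399, minus strand for its longest member). Its 3 members had no count in A549. In HBE, ENST00000617990 had 86, 285 and 237 counts, ENST00000622796 had 125, 147 and 175, and ENST00000613481 had 112, 80 and 140. Their levels in A549 were at least 218-fold, 160.0-fold and 119-fold lower. The members share the splice donor at chr17:38451626 and join it to 3 different acceptors, at 38451393, 38450723 and 38451525. The 25 bases before the junction are in lower case and the 25 after it in capitals, from the GENCODE release 29 transcripts.
ENST00000617990: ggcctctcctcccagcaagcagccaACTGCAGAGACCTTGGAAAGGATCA
ENST00000622796: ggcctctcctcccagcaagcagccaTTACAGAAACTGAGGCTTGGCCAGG
ENST00000613481: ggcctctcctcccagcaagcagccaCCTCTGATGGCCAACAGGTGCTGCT

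The share of ENST00000617990 in the gene's counts was 26.6%, 55.7% and 42.9% in the HBE samples, and that of ENST00000613481 was 34.7%, 15.6% and 25.4%. All 3 transcripts had counts in every HBE sample.

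**Figure D3:**
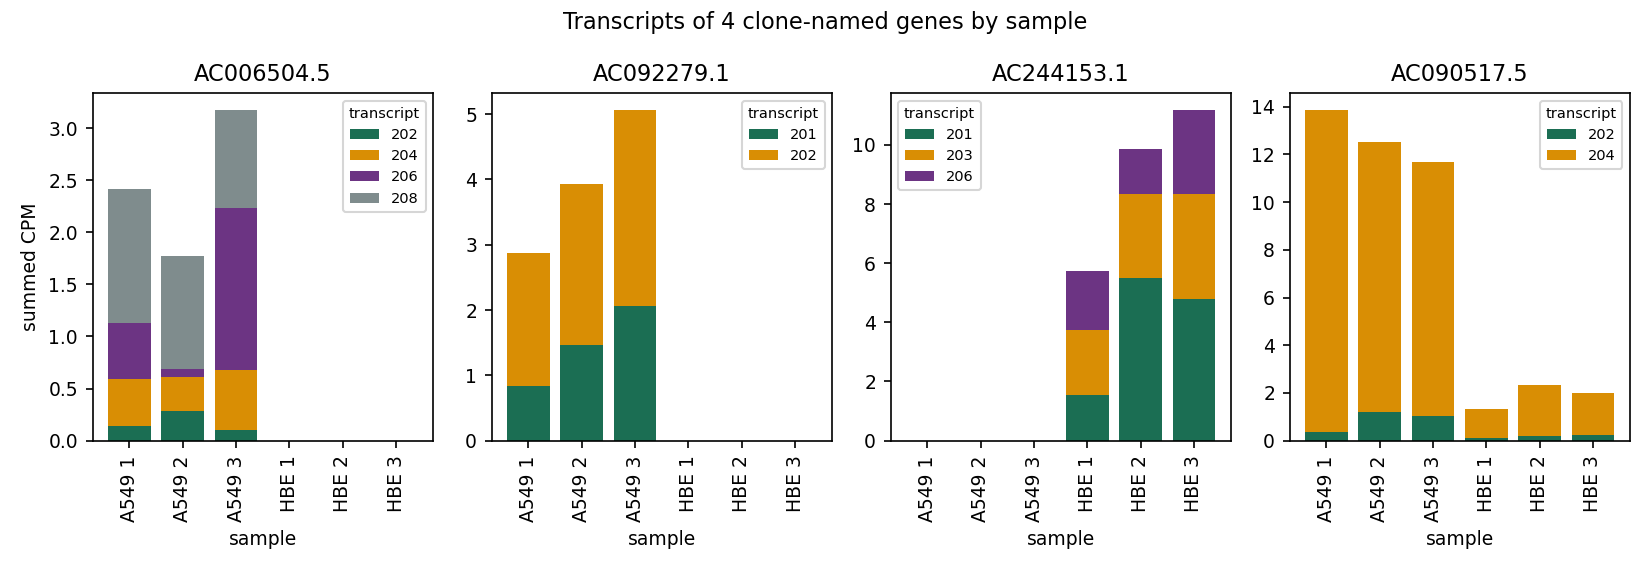
Summed CPM per sample of the members of AC006504.5, AC092279.1, AC244153.1 and AC090517.5, with the 3 A549 samples left of the 3 HBE samples and each colour a transcript. AC006504.5 and AC092279.1 have bars in A549 alone, AC244153.1 in HBE alone and AC090517.5 in both lines, with ENST00000560587 as the main part in each.

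The direction of the calls varied with the genomic context of the members, described here by counts with no test, for transcripts that share genes and loci. Members of antisense genes were lower in A549 more often, with 48 higher and 89 lower of 138, or 34.8% and 64.5%. Antisense-named transcripts, which are no members, were close to this at 35.1% higher and 64.9% lower of 114. The lean is therefore not particular to the members. The contexts below were not counted for other transcripts, so their splits are not shown to be particular to the members. Over the whole table, 47.6% of transcripts were higher in A549 and 52.3% lower. Members of lincRNA genes were split into 72 higher and 62 lower of 134, and those of sense intronic genes into 20 higher and 14 lower of 34. With column totals, lincRNA genes stood at 72 higher and 42 lower and sense intronic genes at 20 and 6. Of the members opposite coding exons, 33 were higher and 69 lower of 103. Their median log2 fold change was -3.10, against -2.004 over the table, and both medians lie on the side with more transcripts. Of the members without coding exons on either strand, 108 were higher and 106 lower of 214, or 108 and 84 with DESeq2's size factors and 108 and 73 with column totals. Of those sharing coding exons on the same strand, 12 were higher and 6 lower of 18, or 12 and 2 with column totals. Antisense members and members opposite coding exons were lower in more cases under each scaling tried; with column totals they stood at 49 higher and 61 lower and at 34 higher and 45 lower.

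**Figure D4:**
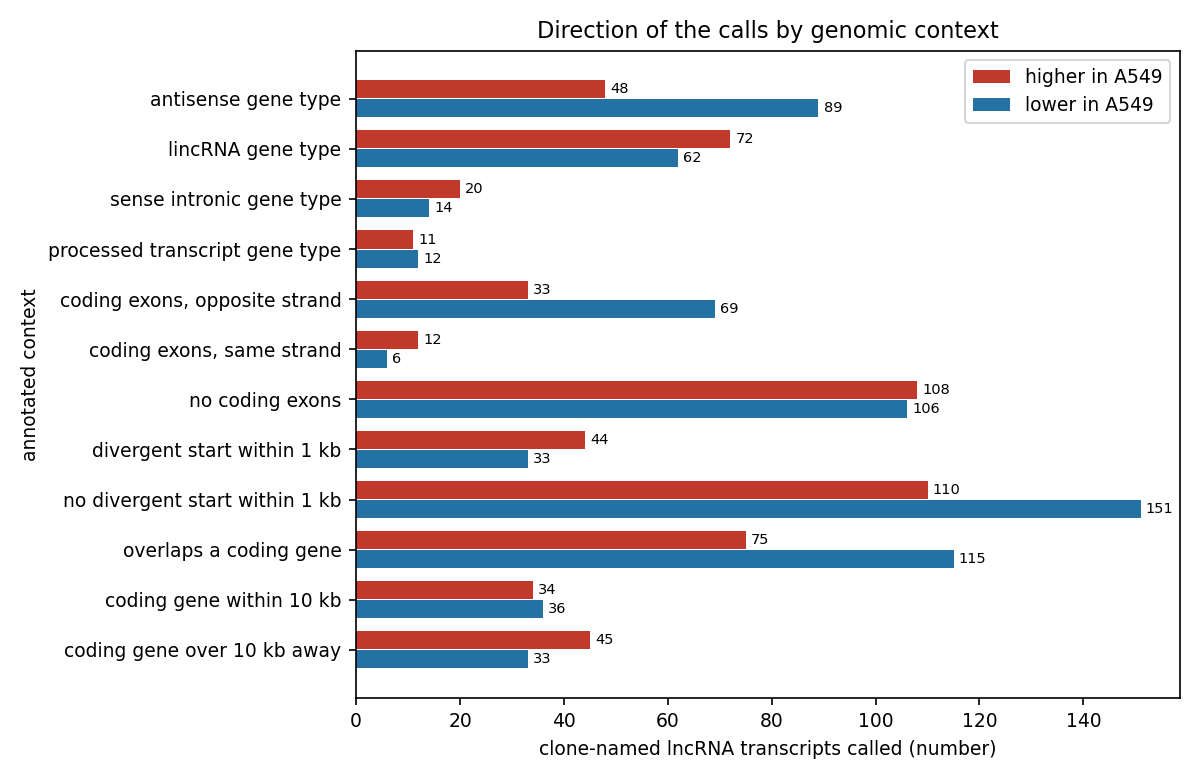
Number of clone-named transcripts called higher (red) and lower (blue) in A549 by annotated gene type, overlap with coding exons, divergent start and distance to the nearest coding gene. Antisense members (48 higher, 89 lower) and members opposite coding exons (33 higher, 69 lower) have the longer blue bar, and divergent members (44 higher, 33 lower) the longer red bar.

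Divergent members had more higher than lower calls at a distance of 1 kb but not at 5 kb. Of the 78 members that start within 1 kb of a coding gene's start on the opposite strand, 44 were higher in A549 and 33 lower. These were 56.4% and 42.3%, against 47.6% and 52.3% of all transcripts in the table. Divergent starts were not counted for other transcripts, so the lean is not shown to be particular to the members. The split was 45 and 21 with DESeq2's size factors and 45 and 18 with column totals, but with a distance of 5 kb 57 were higher and 61 lower of 119. The other 261 members had 110 higher and 151 lower, but 110 higher and 105 lower with column totals. AP001362.2, chosen after its values were seen, starts 4 bases from the nearest GENCODE start of RELA, the gene of the p65 subunit of NF-kappaB. It had 130, 144 and 114 counts in A549, against 9, 30 and 9 in HBE. The log2 fold change was 2.90 (SE 0.70), and leaving out HBE replicate 2 gave 3.73. AC132192.2, listed by RefSeq as ZNF143-AS1 and starting 263 bases from the transcription factor gene ZNF143, had 207, 259 and 226 counts in A549, against 34, 34 and 32 in HBE, and a log2 fold change of 2.68 (SE 0.58). AC087482.1, opposite exons of SMAD3, the gene of a TGF-beta signal mediator, starts 577 bases from it. This was the single member not called, with 131, 110 and 141 counts in A549, against 44, 55 and 64 in HBE. Its log2 fold change was 1.11 (SE 0.59, adjusted p = 0.0705, edgeR's quasi-likelihood test), while DESeq2's Wald test gave an adjusted p of 0.0171 and limma-voom 0.00720.

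Coding genes themselves were not in the table, so the members' partners were not measured here. By distance, 75 members that overlap a coding gene were higher and 115 lower of 191, a split that turned to 76 and 74 with column totals. Of those within 10 kb of one, 34 were higher and 36 lower of 70, which turned to 34 and 22, and of those over 10 kb away, 45 were higher and 33 lower of 78.

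The promoter windows of RefSeq held the annotated start of 87 members, 74 of them on the member's own strand. The median GC content of these own-strand windows was 62.3% for the 28 members higher in A549 and 61.0% for the 46 lower, against 58.7% over all 35116 windows. The antioxidant response element TGANNNNGC, sought on both strands, occurred in 14 of the 28 windows of higher members and 22 of the 46 of lower members, against 41.8% of all windows. The AP-1 motif TGANTCA occurred in 3 of 28 and 4 of 46, against 7.71% of all windows. The 2 patterns can overlap, since both begin with TGA. CCAAT occurred in 8 of 28 and 9 of 46, against 34.6%, TATAAA in 2 of 28 and 2 of 46, against 11.5%, and TGACGTCA in 3 of 28 and 1 of 46, against 1.85%. In windows on the opposite strand, counted for 36 members whose partner has no LINC or LOC name, the median GC content was 68.2%. Of the windows printed above, only that of AC002480.1 holds CCAAT and only that of AC090517.5 holds TGANNNNGC.

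Nearest coding genes were compared with lists of pathways and lung cell types. Neighbours of other transcripts were not counted by these lists. Over the whole table, 47.6% of transcripts were higher in A549 and 52.3% lower. The 2 members beside targets of NRF2, the activator of antioxidant genes, were both higher in A549, at few counts. A link to NRF2 was not tested. AL033397.1, listed by RefSeq as KILH, shares exons with GCLC, the catalytic subunit gene of glutathione synthesis, on the same strand, so its counts can include reads of GCLC. It had 22, 26 and 6 counts in A549 and none in HBE, a bound of 16.8-fold. AL391427.1, within AKR1C2, an aldo-keto reductase gene, on the opposite strand, had 9, 11 and 7 counts in A549 and none in HBE, a bound of 8.38-fold. For p53 targets the list held AC107959.2, within the death receptor gene TNFRSF10B on the opposite strand, with no count in A549 and 8, 12 and 13 in HBE, at least 11.8-fold lower in A549. For inflammatory and interferon genes it held AL353751.1, which shares exons with the interferon-induced gene IFIT2, with no count in A549 and 29, 11 and 32 in HBE, at least 25.8-fold lower in A549.

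Of 9 members beside zinc-finger genes, 6 (66.7%) were higher and 3 (33.3%) lower, against 47.6% and 52.3% of all transcripts in the table. Beyond those above they included AC073111.4, which shares exons with ZNF775, with 87, 135 and 132 counts in A549, against 24, 42 and 26 in HBE (log2 fold change 1.83, SE 0.63). AC022150.4, within ZNF83 on the same strand, had no count in A549 and 27, 78 and 120 in HBE, at least 80.6-fold lower in A549. No member was nearest to a gene of the airway basal, alveolar and club, mesenchymal or HOX lists.

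By chromosome, 3 members were higher and 23 lower of the 26 on chromosome 1, and 2 were higher and 12 lower of the 14 on chromosome 7. Of the other annotated transcripts, 9 were higher and 30 lower of 39 on chromosome 1 and 1 was higher and 17 lower of 18 on chromosome 7. On chromosome 19 the members had 20 higher and 10 lower of 30, and the other annotated transcripts 6 higher and 15 lower of 21. The 30 members there came from 25 genes, so transcripts of the same gene were counted more than once. On chromosome 15 the members had 15 higher and 7 lower of 23, and the other annotated transcripts 9 higher and 6 lower of 15. These differences between members and other transcripts were not tested. Copy number of the chromosomes was not analysed here.

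**Figure D5:**
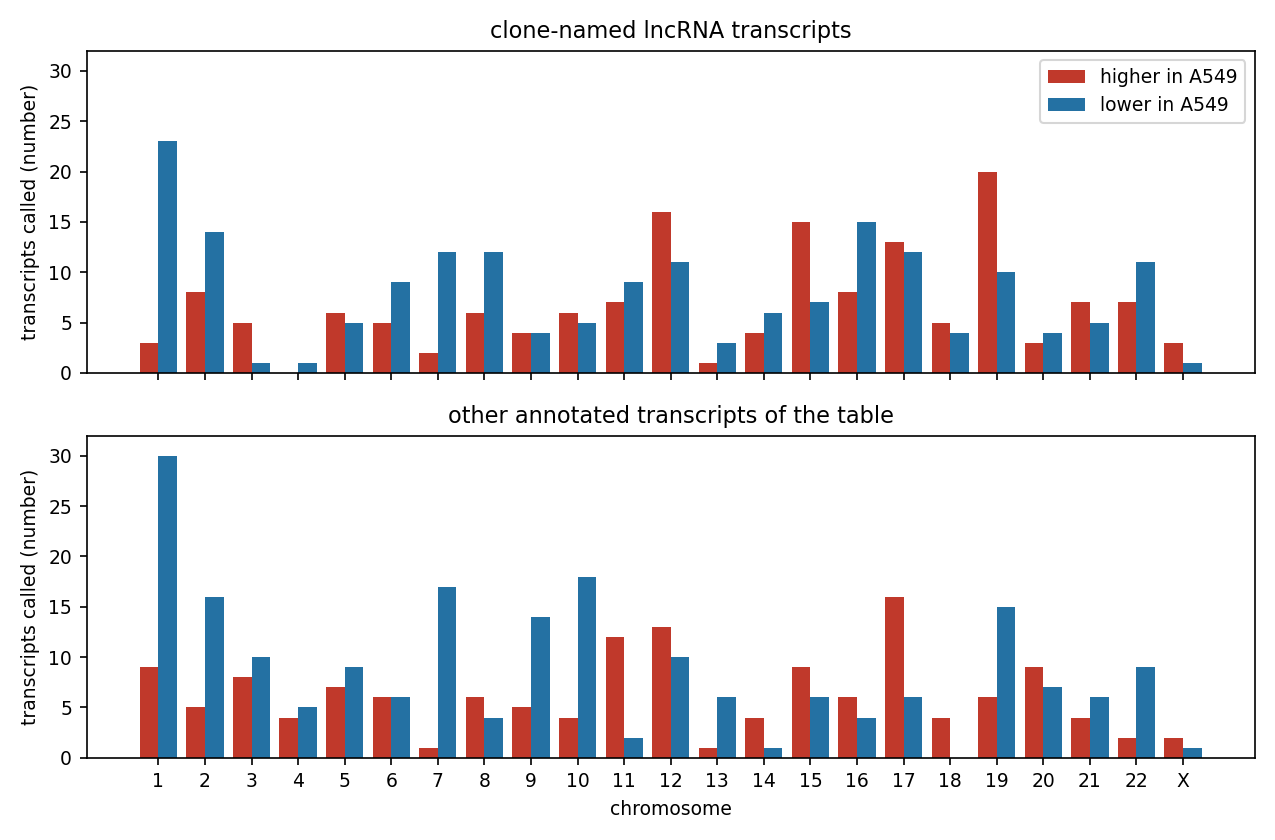
Number of transcripts called higher (red) and lower (blue) in A549 on each chromosome, for the clone-named members (upper panel) and the other annotated transcripts of the table (lower panel). Chromosomes 1 and 7 have more lower than higher calls in both panels, and chromosome 19 has 20 higher and 10 lower members in the upper panel, against 6 higher and 15 lower transcripts in the lower one.

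Neighbouring transcripts mostly had the same direction, in pairs with a member and in pairs without one. Of 24 pairs of a member and another annotated transcript of a different gene within 10 kb, 23 were called in the same direction, and of 15 pairs that did not overlap, 14 were. Of 18 such pairs of annotated transcripts without a member, 17 had the same direction, and of 14 that did not overlap, 13 did, so the members' share of 95.8% stood beside 94.4% for the others and is no result about the members. These counts were the same under each scaling tried. Pairs share loci, and the 4 members of AC006504.5 give several of them. The exception was ENST00000558617 of AC027237.3, listed by RefSeq as KIF23-AS1, with AC027237.4, 4755 bases apart and chosen after their values were seen. ENST00000558617 had 12, 0 and 18 counts in A549, against 122, 108 and 142 in HBE (log2 fold change -3.74, SE 0.83, or -4.44 without A549 replicate 3). AC027237.4, within PAQR5, had 7, 5 and 9 counts in A549 and none in HBE.

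Other classes of the table were counted in the same way. LINC-named transcripts had 36 higher and 45 lower of 81, antisense-named transcripts 40 higher and 74 lower of 114, and transcripts assembled without annotation 384 higher and 365 lower of 749. A mean of 1 FPKM was reached in at least 1 line by 29.6% of the LINC-named, 31.6% of the antisense-named and 17.6% of the assembled transcripts, against the 30.7% of the clone-named members given above. No test of these differences was made.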

How the data were processed

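Total RNA of 3 samples per line was made into sequencing libraries, per the labels. For 1437 lncRNA transcripts that the authors selected, the deposited table holds the estimated count and the FPKM in each sample besides the authors' p-value and log2 fold change. The submitters' processing notes name HISAT2, StringTie, DESeq2 and GRCh38. Library sizes were chosen so that FPKM scaled by length and library size, rounded up, equalled the deposited count as often as possible. At the chosen sizes this held in 99.4% to 99.6% of the nonzero values compared, which is the criterion of the fit and no separate check. Whole-number counts of all transcripts were tested with edgeR 4.0.16 (R 4.3.3) by the quasi-likelihood test on these sizes, Benjamini-Hochberg at 0.05, with no filter or block, after a test on simulated data. The SE is the log2 fold change over the square root of F. A fold against a line without counts is a lower bound computed with 3 counts over its 3 samples. Bounds and exact binomial 95% intervals cover counting error only, and leaving out a sample of the line without counts lowers each bound by up to 1.56-fold. GENCODE release 29 gave positions on GRCh38, and 335 member names were equal there. A distance between starts was taken to the nearest start of any GENCODE transcript of the coding gene. The RefSeq start that places a printed window can lie elsewhere. RefSeq gave 39 names. BLAST 2.17.0 sought copies of at least 50 bases at 97% identity.

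The members, lists and tests were chosen with earlier results of these data known. The members named were the leading example on chromosome 18 and, in each direction, 10 members by size of fold and 5 by CPM with at least 50 counts on average in the higher line, the 5 smallest adjusted p with at least 10 counts in each line, genes with 4 members, members not called and up to 4 members per neighbour list. Names added after values were seen are marked. Alternatives were DESeq2 1.42.0, limma 3.58.1, other scalings, filters and pseudocounts, and leaving out each sample.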

Additional observations from a re-analysis of the deposited data

How the results depend on the processing

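The percent of member calls that were higher in A549, 45.6, turned to 52.2 with DESeq2's size factors, 55.8 with column totals and 50.5 without members that overlap coding exons; the cause was not tested for the scalings, and the last set has fewer members by construction (214 calls, 108 higher and 106 lower). Asking for 10 or more counts in at least 3 samples reduced the higher calls to 99, and members with at least 50 counts on average gave 130 calls, 48 higher and 82 lower, both from fewer transcripts. For members without coding exons the percent higher, 50.5, turned to 48.3 with 1 transcript per gene and ranged from 48.8 to 50.5 on leaving out each sample, but was 56.2 with DESeq2's size factors and 59.7 with column totals, so no direction holds. For divergent starts it was 57.1, or 68.2 with DESeq2's size factors and 71.4 with column totals, but 48.3 with a distance of 5 kb. The labels do not tie replicate numbers across the lines. Same-numbered deviations correlated at 0.02, -0.002 and -0.056, and differently numbered ones at -0.066 to 0.073. Such values cannot show whether samples were handled in pairs. With the replicate block 309 members were called, 137 higher and 172 lower. Leaving out each sample gave 328 to 337 calls and changed no sign, but 20 members lost their call in at least 1 such fit. Of 685 values of the 46 named members under the alternatives, 665 kept direction and call, 13 lost the call, 0 reversed and the rest gained a call. The difference in summed CPM, A549 minus HBE, was -128. It ranged from -161 to -100 on leaving out each sample, but turned to 189 with DESeq2's size factors (exact permutation p = 0.1) and 193 with column totals (p = 0.2) and was -10.3 with TMM factors (p = 0.8), scalings of the sum chosen after seeing the data; the cause was not tested. Depth limits members with few counts: 94 had at most 3 counts in A549 and 97 in HBE.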
